A study of Mus with 9 samples.

Results

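This section describes 37 mouse genes of homologous recombination, of the Fanconi anaemia pathway and of their checkpoint kinases in marrow with an AML1-ETO knock-in. They were taken from the deposited count table by gene symbol, with no threshold on a measured value, from a list drawn up with earlier results of these data known. All 37 symbols were found, once each, among the 54532 genes of the table, and all 37 passed the filter on low counts. The members were sorted by what their products do into 7 genes of break sensing and end resection, 5 of the BRCA complexes and 8 of strand exchange. A further 8 belong to the Fanconi core and its translocase, 2 form the Fanconi ID pair, 3 are structure-specific nucleases or their scaffold, 3 are checkpoint kinases and 1 recognises mismatches.

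RNA was sequenced from bone marrow cells in 9 libraries, 3 for each of 3 groups. All groups share the AML1-ETO knock-in, a conditional allele of the RUNX1-RUNX1T1 fusion joined to an mCherry tag, carried by fetal liver cells of embryonic day 12.5. These cells were infected with the retrovirus MSCV-IRES-EGFP and, as mCherry+ GFP+ cells, put into lethally irradiated C57BL/6 mice together with supportive cells. In the Vec group the virus carried no added gene, in CCND2wt it carried unmutated cyclin D2, and in CCND2mut a cyclin D2 in which alanine replaces threonine 280. The sources used here do not give the age of the recipients, what activates the conditional allele, or whether marrow was sorted again before RNA was taken, so that supportive and host cells may be part of each sample. No label ties the libraries of 1 group to separate mice, and the p-values then reflect the spread between the samples alone, perhaps a technical one.

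As background, homologous recombination repairs a broken chromosome by copying the intact sister chromatid, and is used mostly after the DNA has been replicated. The broken end is sensed by ATM and the complex that holds RAD50 and NBN, cut back to single-stranded DNA by CtIP (Rbbp8), EXO1 and DNA2 with BLM, and made ready for strand exchange by BRCA1, BARD1, PALB2 and BRCA2. The Fanconi core complex attaches ubiquitin to the pair FANCD2 and FANCI at crosslinks between DNA strands, and inherited loss of this pathway leads to bone marrow failure. ATR and CHK1 (Chek1) hold back division when replication forks stall, and CHK2 (Chek2) acts downstream of ATM.

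Totals per library were 15043755 to 17593634 counts, and the counts at single members ran from 25 to 1839. Levels are given as CPM, edgeR's counts scaled to a common library size with TMM factors. The mouse gene Ccnd2 stood at 76.1, 78.9 and 86 CPM in Vec 1, 2 and 4, at 7.29, 9.28 and 11.1 in CCND2wt 2, 3 and 4 and at 12.6, 58.1 and 51 in CCND2mut 1, 2 and 3, so that counts at this gene do not follow a label of added cyclin D2. The species of the added sequence is not given, and reads of it may be counted elsewhere or not at all. Each direction below thus rests on what the libraries are labelled. The libraries also differed in genes of cell division and in markers of blood cell types, summed here over each list. The 41 DNA replication genes summed to 2289.9 to 3102 CPM in Vec, 4890.2 to 5076 in CCND2wt and 4187 to 5722 in CCND2mut, and 30 mitotic genes to 799 to 2128, 3683 to 3853 and 3328 to 5279 CPM. Maturing neutrophil markers (14 genes) summed to 619 to 15879.7, 157 to 279 and 6309 to 22231 CPM, mast cell markers (8 genes) to 7159 to 10026, 16425 to 16980.5 and 1348 to 10572, and erythroid markers (12 genes) to 954 to 18387, 1683 to 1879 and 36 to 338. Stem and progenitor markers (8 genes) summed to 2074 to 2728, 2582 to 2647 and 503 to 1328 CPM. In CCND2wt against Vec their median log2 fold change was -0.69, with 3 of 8 above 0, although the sums were close. The highest mitotic, neutrophil and erythroid sums among the Vec libraries were all those of Vec 1. Every defining marker of neutrophils, mast cells, red cells and progenitors had counts in each group. Sums for the other lists, in the same order of groups, were 1359.7 to 1929.7, 2500.3 to 2684 and 5152 to 10661 CPM for promyelocyte granules (6 genes), 146 to 1679.5, 81.6 to 91.9 and 3138 to 4712 for monocytes and macrophages (11 genes), and 52.3 to 351, 25.7 to 28.7 and 5.57 to 16.2 for B cells (10 genes). They were 67.8 to 137, 33.8 to 43.5 and 35.5 to 63.9 CPM for T and NK cells (10 genes, with Klrb1c at 0 in CCND2mut), 345 to 433, 325 to 338 and 30.04 to 80.1 for megakaryocytes (7 genes, with Gp1bb at 0 in every library) and 273 to 313, 317 to 338 and 432 to 603 for marrow stroma (7 genes). Genes with high counts weigh most in such sums. In CCND2wt against Vec the median log2 fold change of promyelocyte genes was -2.35, with 2 of 6 above 0. Ctsg stood at 495, 275 and 422 CPM in Vec and 1402, 1420 and 1485 in CCND2wt. In CCND2mut against Vec the median of mast cell genes was 0.32, with 5 of 8 above 0. Pecam1 held 288, 271 and 311 CPM of the stromal sum in Vec and 413, 489 and 596 in CCND2mut. The part of cell types in the members' differences was not tested, and bulk RNA cannot tell fewer cells of a type from less RNA per cell. Among themselves the 3 CCND2wt libraries differed less (chi-square of counts per gene 7.0 to 17.7) than those of Vec or CCND2mut (53.3 to 148), and are used here as 3 samples.

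**Figure D1:**
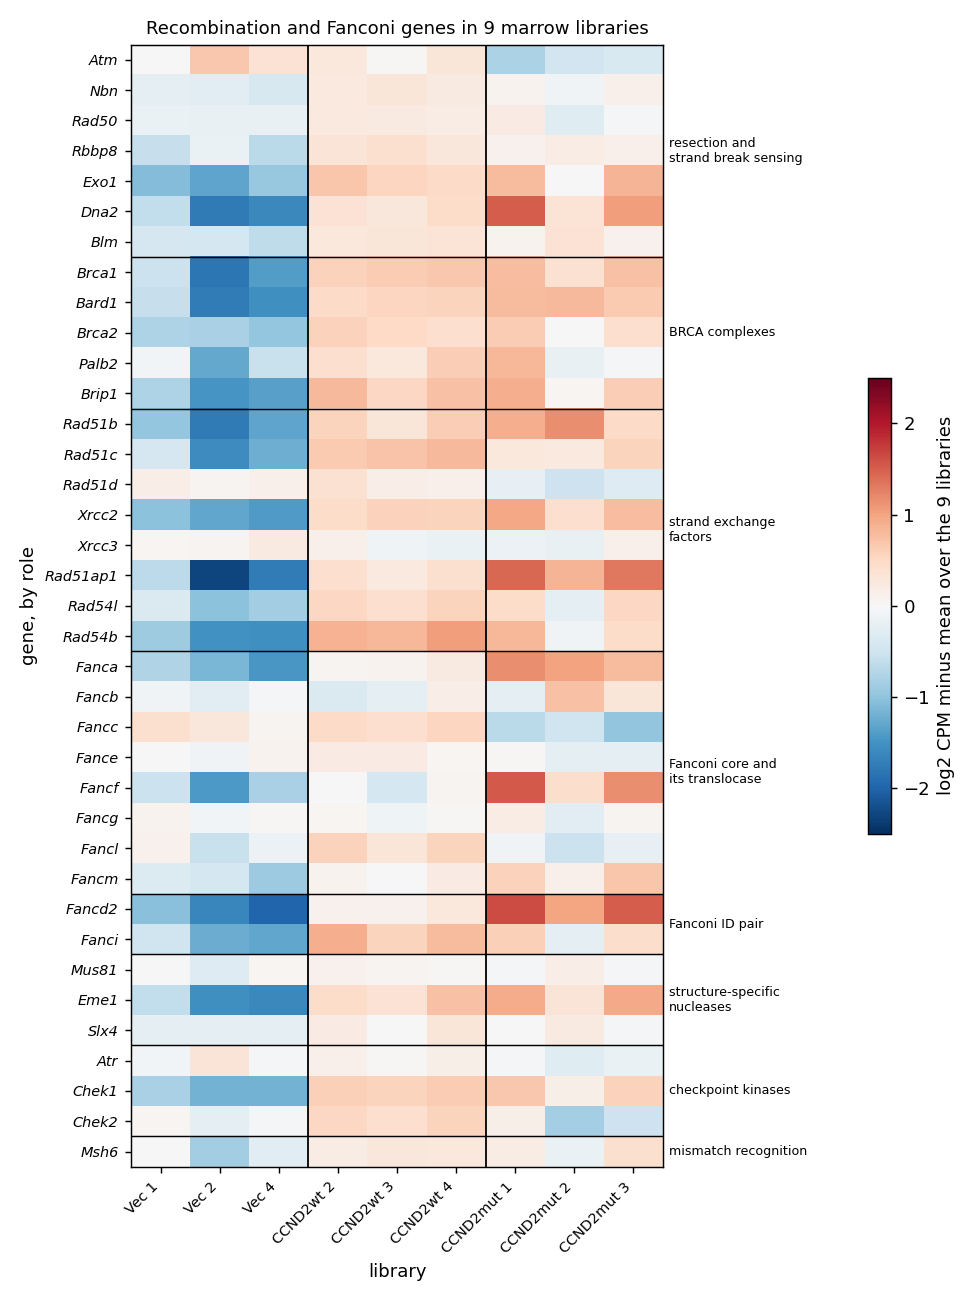
Level of each of the 37 genes (rows, grouped by role) in the 9 libraries (columns), as log2 CPM minus the gene's mean over the 9 libraries. Most rows are blue in Vec and red in both other groups, while Atm, Rad51d and Fancc are lowest in CCND2mut and rows such as Fancg, Xrcc3 and Mus81 are pale.

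Most of the genes stood higher in the libraries labelled CCND2wt and CCND2mut than in Vec. In CCND2wt against Vec 21 of 37 rose and 0 fell, where 9.71% of all 15660 tested genes rose and 9.05% fell (edgeR quasi-likelihood test, adjusted p under 0.05 over all tested genes). The median log2 fold change of the 37 was 0.80, beside -0.04 for all tested genes. In CCND2mut against Vec 22 rose and 3 fell, with a median of 1.01 beside -0.03, where 24.9% of all tested genes rose and 26.9% fell. Every CCND2wt library lay above every Vec library for 29 members (24.6% of all tested genes), and every CCND2mut library above every Vec library for 23 (27.4% of all tested genes), with 3 wholly below (29.2%). The summed level of the 37 was 856 ± 65.8 CPM in Vec, 1447 ± 47.6 in CCND2wt and 1456 ± 178 in CCND2mut (mean ± SD, n = 3). The comparisons with Vec share the Vec libraries and are given side by side, not as support for one another. Summing the 3 CCND2wt libraries into 1 sample left 0 of the 37 past the threshold against Vec in edgeR (20 at an unadjusted p under 0.05, all higher), with a median of 0.81, so that each call in CCND2wt against Vec below rests on the libraries being separate samples. The calls of CCND2mut against Vec were then 21 risen and 3 fallen.

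**Figure D2:**
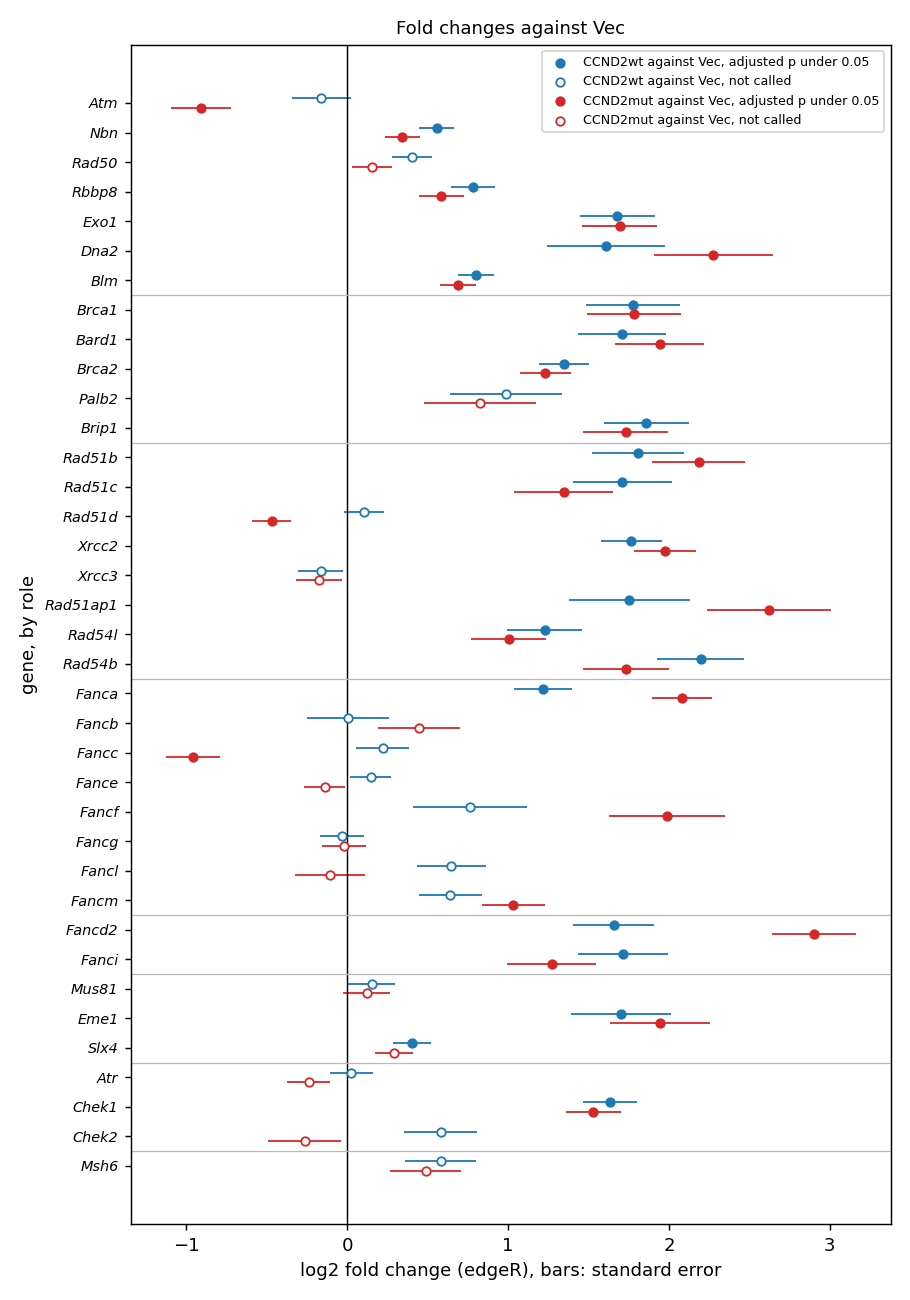
Log2 fold change of each gene against Vec (x axis) in CCND2wt (blue) and CCND2mut (red), with its standard error as a bar, and filled points where the adjusted p was under 0.05. The BRCA complexes, most strand exchange factors and the ID pair lie to the right in both colours, and Atm, Rad51d and Fancc lie to the left in red.

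Of the BRCA complexes, 4 of 5 genes rose in CCND2wt (9.71% of all tested genes) and 4 of 5 in CCND2mut (24.9%). Brca1, whose product with BARD1 forms a ubiquitin ligase that guides resection, lies on chromosome 11 at 101488764 to 101551955 of mm10 (minus strand). It stood at 25.9, 10.7 and 14.2 CPM in Vec 1, 2 and 4, at 55.7, 58.3 and 60.3 in CCND2wt 2, 3 and 4, and at 63.9, 48.7 and 62.5 in CCND2mut 1, 2 and 3. The Vec libraries lay below all others, with Vec 1 the highest of them. Brca1 thus rose 3.43-fold in CCND2wt (log2 fold change 1.78, standard error (SE) 0.293, adjusted p = 0.00592) and 3.44-fold in CCND2mut (1.78, SE 0.294, adjusted p = 0.00135). Its partner Bard1 stood at 15.2, 6.78 and 7.87 CPM in Vec, 31.5, 32.8 and 33.2 in CCND2wt and 39.4, 39.8 and 35.7 in CCND2mut, and rose by 1.71 and 1.94. Brca2, whose product acts on the resected single-stranded DNA (chromosome 5 at 150522630 to 150570329, plus strand), stood at 28.2, 27.6 and 24.8 CPM in Vec, 72, 68 and 64.9 in CCND2wt and 75.1, 49.1 and 65.1 in CCND2mut. The Vec libraries of Brca2 differed by little, and the gene rose by 1.35 (SE 0.157, adjusted p = 0.00158) and 1.23 (SE 0.157, adjusted p = 0.00037). The helicase gene Brip1, whose product binds BRCA1, rose from a Vec level of 8.73 ± 2.43 CPM to 31.7 ± 3.12 in CCND2wt and 29 ± 8.3 in CCND2mut. Palb2, the bridge between BRCA1 and BRCA2, was the member of this group that was not called. It stood at 15.2, 6.58 and 10.8 CPM in Vec, 21.4, 19 and 24.2 in CCND2wt and 28.2, 14.1 and 15.6 in CCND2mut, with log2 fold changes of 0.99 (adjusted p = 0.0805) and 0.83 (adjusted p = 0.0763). Its CCND2mut libraries overlapped Vec 1. In CCND2wt Palb2 passed with DESeq2 (adjusted p = 0.0314), when only the groups compared were fitted (0.0449), without CCND2mut 1 (0.0404) and without Vec 1 (0.035). In CCND2mut it passed without Vec 1 (adjusted p = 0.0265).

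Strand exchange factors were split by gene, also among Rad51b, Rad51c, Rad51d, Xrcc2 and Xrcc3, whose products work together in 2 complexes. Of the 8 genes 6 rose in CCND2wt (9.71% of all tested genes) and 6 in CCND2mut (24.9%), and 1 fell in CCND2mut (26.9%). Of these 5, Xrcc2 (chromosome 5 at 25689812 to 25705825, minus strand) stood at 6.15, 5.08 and 4.74 CPM in Vec, 17.2, 18.8 and 18.4 in CCND2wt and 24.6, 16.9 and 21.4 in CCND2mut, with no overlap between Vec and the other groups. It rose by 1.77 (SE 0.191, adjusted p = 0.00118) in CCND2wt and 1.98 (SE 0.192, adjusted p = 0.000107) in CCND2mut. Rad51b rose from 2.32 ± 0.629 CPM to 8.14 ± 0.901 and 10.6 ± 2.46, and Rad51c from 3.16 ± 1.36 to 10.4 ± 0.597 and 8.07 ± 0.997. The other two genes of these complexes did not rise. Rad51d, the direct partner of XRCC2 (chromosome 11 at 82876434 to 82890614, minus strand), stood at 42.7, 40.1 and 41.6 CPM in Vec, 49.7, 42.6 and 41.5 in CCND2wt and 33, 26.5 and 30.4 in CCND2mut. All CCND2mut libraries lay below the rest, and Rad51d fell by 0.47 against Vec (SE 0.123, adjusted p = 0.0122). Xrcc3, whose product pairs with that of Rad51c, stood at 27, 27.5 and 30.7 CPM in Vec, 28.5, 24.3 and 23.2 in CCND2wt and 23.8, 23.1 and 28.6 in CCND2mut, with overlap between all groups (adjusted p = 0.445 and 0.327).

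Of the other strand exchange factors, Rad51ap1 encodes a protein that promotes strand pairing. It stood at 20.2, 6.44 and 9.47 CPM in Vec, 42.3, 37.6 and 42.1 in CCND2wt and 86, 57 and 79.5 in CCND2mut. The groups followed one another without overlap, with Vec 1 again the highest Vec library. The rise was 3.37-fold in CCND2wt (log2 1.75, SE 0.376, adjusted p = 0.0162) and 6.15-fold in CCND2mut (log2 2.62, SE 0.386, adjusted p = 0.000818). Without Vec 4, CCND2wt 2 or CCND2wt 4 the call in CCND2wt was lost (adjusted p = 0.0549, 0.0592 and 0.0605). Genes of the motor proteins of strand exchange also rose, Rad54l from 15.2 ± 3.77 CPM to 35.6 ± 1.65 and 30.5 ± 7.86 and Rad54b from 6.5 ± 1.73 to 29.8 ± 2.43 and 21.6 ± 6.69. Rad54b had the largest log2 fold change of the 37 in CCND2wt against Vec (2.20, SE 0.273, adjusted p = 0.00195).

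In break sensing and resection, 5 of 7 genes rose in CCND2wt (9.71% of all tested genes), and 5 rose (24.9%) and 1 fell (26.9%) in CCND2mut. Exo1, a nuclease of resection and mismatch repair, stood at 9.94, 8.47 and 10.9 CPM in Vec, 34.1, 30.7 and 29.2 in CCND2wt and 36.2, 20.8 and 37.8 in CCND2mut. Vec was lowest without overlap, and CCND2mut 2 was the lowest of the other 6. Exo1 rose by 1.68 (SE 0.233) and 1.69 (SE 0.233), with adjusted p = 0.003 and 0.000535. Dna2, a nuclease and helicase that also trims Okazaki fragments, stood at 23.7, 10.6 and 11.8 CPM in Vec, 46.7, 44.1 and 49.7 in CCND2wt and 103, 46 and 74.3 in CCND2mut. Its spread in CCND2mut was wide, and CCND2mut 2 lay within the range of CCND2wt. The rises of Dna2 were 1.61 (SE 0.365, adjusted p = 0.0194) and 2.28 (SE 0.372, adjusted p = 0.00134), and the first was lost when any of Vec 2, Vec 4 or the 3 CCND2wt libraries was left out (adjusted p = 0.0524, 0.0632, 0.0649, 0.0578 and 0.0717). The helicase gene Blm rose by less, from 49.2 ± 4.06 CPM to 85.8 ± 2.26 and 79.4 ± 8.59, as did Rbbp8, from 36.8 ± 7.23 to 63.2 ± 2.6 and 55.2 ± 1.49.

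Of the sensor genes, Nbn rose, Rad50 was not called and Atm fell in CCND2mut. Nbn rose by 0.56 (adjusted p = 0.0109) in CCND2wt and 0.34 (adjusted p = 0.0275) in CCND2mut. Of the calls for Nbn, the first was lost without CCND2wt 2 or 3 (adjusted p = 0.0506 and 0.0525) and the second under 10 of the alternative settings, up to an adjusted p of 0.129. Its partner Rad50 stood at 72.4 ± 0.517 CPM in Vec, 95.7 ± 1.67 in CCND2wt and 80.7 ± 13.7 in CCND2mut (adjusted p = 0.0557 and 0.322). In CCND2wt it passed under 6 alternatives, among them DESeq2 (adjusted p = 0.0187) and without CCND2mut 1 or 2 (0.0207 and 0.0142). Atm, the kinase that answers double-strand breaks (chromosome 9 at 53439149 to 53536740, minus strand), went the other way. It stood at 44.8, 71.5 and 57.4 CPM in Vec, 53.9, 46 and 55.5 in CCND2wt and 26.1, 32 and 34.5 in CCND2mut. Each CCND2mut library lay below all others, while Vec and CCND2wt overlapped. Atm fell by 0.91 in CCND2mut against Vec (SE 0.187, adjusted p = 0.0039).

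**Figure D3:**
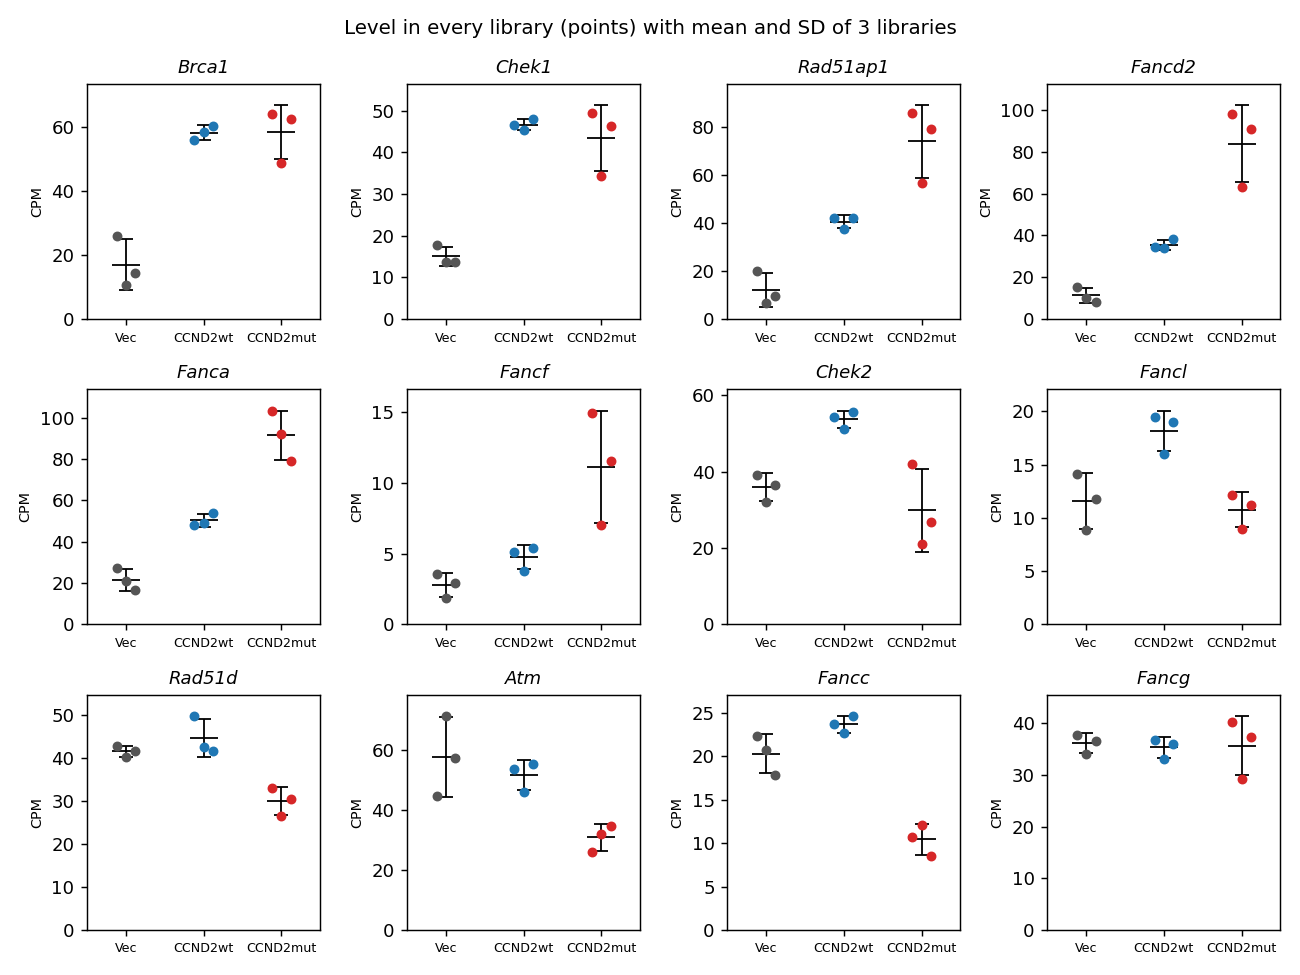
CPM of 12 of the genes in each library (points; Vec grey, CCND2wt blue, CCND2mut red), with the mean of the 3 libraries and the SD as a bar, each panel with its own axis from 0. CCND2wt and CCND2mut overlap for Brca1 and Chek1, all groups overlap for Fancg, Rad51ap1, Fancd2, Fanca and Fancf are highest in CCND2mut, Chek2 and Fancl are highest in CCND2wt, and Rad51d, Atm and Fancc are lowest in CCND2mut.

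The Fanconi core genes encode the subunits of 1 complex. Of the 7 core genes and the translocase gene Fancm, 1 rose in CCND2wt, where 9.71% of all tested genes rose. In CCND2mut 3 rose and 1 fell, where 24.9% rose and 26.9% fell, and over 8 genes counts of this size lie near those shares. What follows describes single genes. Fanca (chromosome 8 at 123268300 to 123318576, minus strand), which encodes the core subunit most often lost in Fanconi anaemia, stood at 27.2, 20.8 and 16.8 CPM in Vec, 48.1, 49.1 and 53.7 in CCND2wt and 103, 91.9 and 79.3 in CCND2mut. The groups did not overlap, and Fanca rose 2.33-fold in CCND2wt (log2 1.22, SE 0.181, adjusted p = 0.00383) and 4.23-fold in CCND2mut (log2 2.08, SE 0.185, adjusted p = 7.49e-05). Fancf, an adaptor of the core, stood at 3.55, 1.9 and 2.94 CPM in Vec, 5.12, 3.79 and 5.38 in CCND2wt and 14.9, 7.0 and 11.5 in CCND2mut. It rose by 1.99 in CCND2mut (SE 0.36, adjusted p = 0.00206), with 0.76 in CCND2wt (adjusted p = 0.159). Fancm, which brings the core to DNA, rose from 18.8 ± 3.74 CPM to 38.4 ± 7.38 in CCND2mut (1.03, adjusted p = 0.00267) and stood at 29.3 ± 2.15 in CCND2wt (0.64, adjusted p = 0.0518), a difference that passed under 8 alternatives, DESeq2 among them (adjusted p = 0.0162).

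Fancc was the core gene that fell. Fancc (chromosome 13 at 63285043 to 63497278, minus strand) stood at 22.4, 20.7 and 17.9 CPM in Vec, 23.8, 22.7 and 24.6 in CCND2wt and 10.7, 12.1 and 8.55 in CCND2mut. The CCND2mut libraries lay wholly below Vec, and Fancc fell by 0.96 (SE 0.168, adjusted p = 0.00177). Fancl, the ubiquitin ligase subunit, stood at 14.1, 8.88 and 11.8 CPM in Vec, 19.5, 15.9 and 19 in CCND2wt and 12.2, 8.93 and 11.2 in CCND2mut. Its CCND2wt libraries lay above all others, with 0.65 against Vec (adjusted p = 0.0671), which passed with DESeq2 (0.0219), limma-voom (0.0466) and without Vec 1 (0.035). The remaining core genes, Fancb, Fance and Fancg, were called in neither comparison with Vec. Fancg stood at 36.1 ± 1.93 CPM in Vec, 35.4 ± 2.0 in CCND2wt and 35.7 ± 5.72 in CCND2mut, and Fance at 27.9 ± 1.63, 30.8 ± 1.92 and 25.3 ± 2.77. Fancb, which lies on the X chromosome, stood at 19.4, 16.7 and 20.2 CPM in Vec, 16, 17.5 and 23.1 in CCND2wt and 17.2, 34.3 and 25.4 in CCND2mut, with CCND2mut 2 the highest of all. Without CCND2mut 1 it passed in CCND2mut against Vec (0.67, adjusted p = 0.0298) and against CCND2wt (adjusted p = 0.0334). Xist, which coats and silences an X chromosome, stood at 169, 10.6 and 878 CPM, 2273, 2108 and 2302 and 4.3, 11.8 and 4.91 in the same libraries, and the part of X dosage in Fancb was not tested. Every CCND2wt library thus lay above the rest in Xist, and the part of sex or donor in the differences of any member was not tested.

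Both genes of the ID pair, the target of the core, rose in both comparisons. Fancd2 (chromosome 6 at 113531682 to 113597017, plus strand) stood at 15.4, 10.2 and 8.06 CPM in Vec, 34.3, 33.9 and 38.2 in CCND2wt and 98.2, 63.1 and 90.8 in CCND2mut. The 3 groups were separate, and Fancd2 had the largest log2 fold change of the 37 in CCND2mut against Vec. It rose 3.15-fold in CCND2wt (log2 1.66, SE 0.252, adjusted p = 0.00415) and 7.47-fold in CCND2mut (log2 2.90, SE 0.262, adjusted p = 7.94e-05). Fanci stood at 18, 10.8 and 10.4 CPM in Vec, 47.7, 37.5 and 43.9 in CCND2wt and 38.4, 21.6 and 34.7 in CCND2mut, and rose by 1.72 (SE 0.279, adjusted p = 0.0053) and 1.27 (SE 0.277, adjusted p = 0.00511). In CCND2wt the means of Fancd2 and Fanci were 35.5 ± 2.39 and 43 ± 5.16 CPM, and in CCND2mut 84.1 ± 18.5 and 31.6 ± 8.84.

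Among the nuclease genes, Eme1 rose in both comparisons and its partner Mus81 was called in neither. Eme1 stood at 7.41, 3.93 and 3.71 CPM in Vec, 15.5, 14.5 and 19 in CCND2wt and 21.8, 14.3 and 22 in CCND2mut, and rose by 1.70 (SE 0.31, adjusted p = 0.0085) and 1.94 (SE 0.312, adjusted p = 0.00114). Mus81, the catalytic partner of EME1 in cutting joined DNA, stood at 18.9 ± 2.54, 21 ± 0.531 and 20.6 ± 1.82 CPM and was not called (adjusted p = 0.497 and 0.508). Slx4, the scaffold for these nucleases, rose by 0.40 in CCND2wt (adjusted p = 0.0442), from 52.5 ± 0.242 to 69.4 ± 7.54 CPM. That call was lost under 10 of the alternative settings, among them without any of the 3 Vec or the 3 CCND2wt libraries (adjusted p up to 0.168 for these removals). In CCND2mut Slx4 stood at 64.2 ± 6.57 CPM (0.29, adjusted p = 0.0632).

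Of the checkpoint kinases, Chek1 rose and the other two did not. Chek1 (chromosome 9 at 36708482 to 36727065, minus strand) stood at 17.7, 13.7 and 13.7 CPM in Vec, 46.5, 45.3 and 48.1 in CCND2wt and 49.4, 34.3 and 46.4 in CCND2mut. Vec was lowest without overlap, and Chek1 rose by 1.63 (SE 0.17, adjusted p = 0.00106) and 1.53 (SE 0.169, adjusted p = 0.000192). Atr, the kinase above CHK1, stood at 47.5, 62 and 48 CPM in Vec, 54.7, 50.6 and 55.1 in CCND2wt and 49.1, 40.1 and 44.2 in CCND2mut, with adjusted p = 0.913 and 0.167. Chek2 stood at 39.2, 32 and 36.6 CPM in Vec, 54.4, 51.2 and 55.7 in CCND2wt and 42, 21 and 26.7 in CCND2mut. CCND2wt lay above Vec in every library (0.58, adjusted p = 0.107, and 0.0092 when fitted on these groups alone, 0.0161 without CCND2mut 1 and 0.04 without CCND2mut 2), and CCND2mut overlapped Vec through CCND2mut 1 (-0.26, adjusted p = 0.358). Without CCND2mut 1 that second difference passed (-0.59, adjusted p = 0.0115). The mismatch recognition gene Msh6 stood at 48.4, 26.6 and 40.5 CPM in Vec, 55.5, 58.8 and 58.6 in CCND2wt and 55, 43.3 and 63.9 in CCND2mut. It was not called (0.58, adjusted p = 0.0961, and 0.49, adjusted p = 0.0924), and without Vec 1 it passed in both (adjusted p = 0.0371 and 0.0295).

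The direct comparison of CCND2mut with CCND2wt found few differences among the 37. In it 3 genes rose and 5 fell, where 23.2% of all tested genes rose and 23.8% fell, and the median of the 37 was -0.11. The genes higher in CCND2mut were Fancd2 (1.24, SE 0.245, adjusted p = 0.0034), Fanca (0.86, SE 0.178, adjusted p = 0.0043) and Fancf (1.23, SE 0.349, adjusted p = 0.0188). All of these are of the Fanconi pathway, as are Fancc and Fancl among the genes that were lower. The genes lower in CCND2mut were Fancc (-1.18, SE 0.169, adjusted p = 0.000664), Chek2 (-0.84, SE 0.229, adjusted p = 0.0153), Fancl (-0.75, SE 0.216, adjusted p = 0.0195), Atm (-0.75, SE 0.186, adjusted p = 0.0106) and Rad51d (-0.57, SE 0.123, adjusted p = 0.00509). None of the 5 BRCA complex genes was called, and their log2 differences lay between -0.16 and 0.24 with SE of 0.154 to 0.345. Rad51ap1 stood at 0.87 (SE 0.363, adjusted p = 0.0807), although its groups did not overlap, and passed with limma-voom (adjusted p = 0.022), when only the groups compared were fitted (0.00471) and without Vec 1 or 2 (adjusted p = 0.00736 and 0.0383). Dna2 stood at 0.67 (SE 0.353, adjusted p = 0.154). In all, every CCND2mut library lay above every CCND2wt library for 5 members (30.9% of all tested genes) and below for 10 (32.2%). Of the 8 calls, Fancf was lost without CCND2wt 2, CCND2wt 3 or CCND2mut 1 (adjusted p = 0.0564, 0.0783 and 0.0563), Fancl without CCND2wt 2 or 4 (0.0705 and 0.0639) and Chek2 without CCND2mut 3 (0.0537). With the CCND2wt libraries summed into 1 sample, Fancc alone of the 37 passed (-1.18, adjusted p = 0.035).

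**Figure D4:**
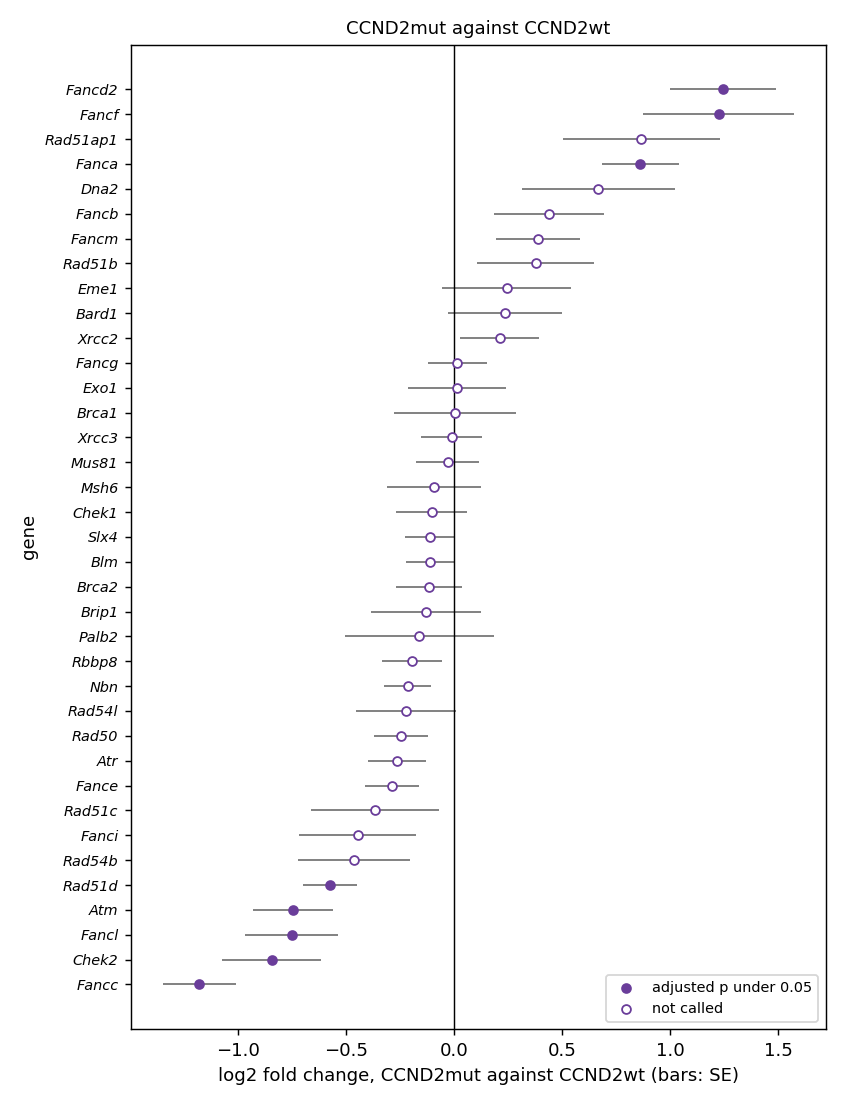
Log2 fold change of each gene in CCND2mut against CCND2wt (x axis, genes sorted by it), with its standard error as a bar and filled points where the adjusted p was under 0.05. Fancd2, Fancf and Fanca are filled at the top, Rad51d, Atm, Fancl, Chek2 and Fancc at the bottom, and the BRCA genes lie near 0.

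The DNA replication genes also differed between the groups, and the members were set against them. Per 100 CPM of the replication sum they summed to 30.05, 36 and 32.8 in Vec, 28.8, 28.5 and 29.3 in CCND2wt and 28.3, 30.2 and 29.1 in CCND2mut. The CCND2wt values all lay below those of Vec, and CCND2mut overlapped Vec by 1 library. Per 100 CPM of the mitotic sum the members summed to 43.8, 100.4 and 101.8 in Vec. They summed to 38.4, 37.8 and 38.5 in CCND2wt and to 30.6, 38 and 34.8 in CCND2mut. The same model was then fitted with the summed counts of the replication genes as the scale of each library, which moved the median of all tested genes to -1.0 and -0.96 in CCND2wt and CCND2mut against Vec. On this scale 15 of the 37 rose and 12 fell in CCND2wt, where 3.59% of all tested genes rose and 65.2% fell. In CCND2mut 14 rose and 13 fell, where 7.2% rose and 58.2% fell. The medians of the 37 were -0.15 and 0.07. The 41 replication genes, whose sum sets this scale, had medians of 0.14 and 0.32. Of them 13 rose and 5 fell in CCND2wt, and 14 rose and 9 fell in CCND2mut. Of the 30 mitotic genes 21 rose in CCND2wt and 23 in CCND2mut, 0 fell, and the medians were 0.90 and 1.28. A rise beyond the replication genes below is thus one beyond their summed counts, not beyond each of them.

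**Figure D5:**
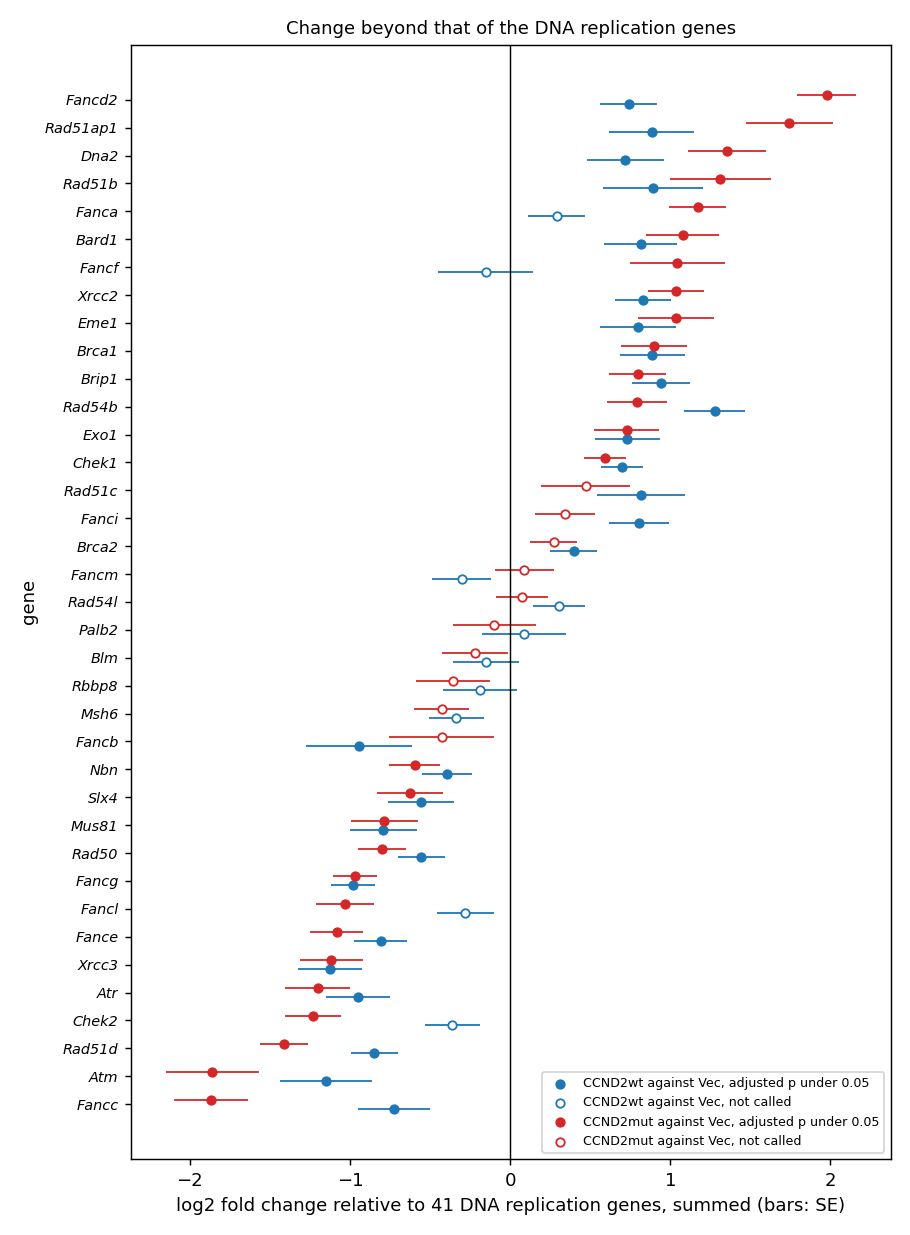
Log2 fold change against Vec when each library is scaled to the summed counts of its 41 DNA replication genes (x axis). A value of 0 means that a gene changed as much as that sum did. Bars are standard errors, CCND2wt is in blue and CCND2mut in red, and points are filled where the adjusted p was under 0.05. Genes from Fancd2 to Chek1 lie right of 0 in red, and genes from Nbn to Fancc lie left of it.

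Of the 15 members that rose beyond the replication genes in CCND2wt, 4 belong to the BRCA complexes, 5 to strand exchange and 2 to resection. With the summed sample left aside, 8 of the 15 were called under every alternative (Bard1, Brca1, Brip1, Chek1, Fancd2, Fanci, Rad54b and Xrcc2). The relative rise of Brca2 (0.40, adjusted p = 0.0374) was lost in 10 alternatives (the summed sample counted), that of Rad51c (0.82) in 9, of Rad51b (0.89) in 8, of Dna2 (0.72) in 6, and of Exo1 (0.73), Rad51ap1 (0.88) and Eme1 (0.80) in 2 each. Scaling by the mean log2 CPM of the replication genes alone ended the calls of Brca2 (adjusted p = 0.395), Rad51b (0.0835), Rad51c (0.0729) and Exo1 (0.0613). Without Vec 4 the calls of Dna2 (adjusted p = 0.0853) and Rad51ap1 (0.0562) were lost too, and without CCND2wt 4 that of Eme1 (0.0658). Fancd2 rose beyond the replication genes by 0.74 in CCND2wt (SE 0.179, adjusted p = 0.00583) and 1.98 in CCND2mut (SE 0.183, adjusted p = 3.83e-05). Rad54b stood at 1.28 and 0.79, Brip1 at 0.94 and 0.80, Brca1 at 0.89 and 0.90, and Chek1 at 0.70 and 0.59, with all of these called. In CCND2mut the calls of Chek1 and Exo1 were lost with the mean log2 scale (adjusted p = 0.0513 and 0.0592). With the summed sample left aside, the other 12 of the 14 were kept in every alternative. Per 100 CPM of the replication sum, Brca1 took 0.835, 0.468 and 0.573 in Vec, 1.1, 1.19 and 1.19 in CCND2wt and 1.12, 1.16 and 1.22 in CCND2mut. Each Vec library was thus below the other 6, Vec 1 included. Fanca rose beyond the replication genes in CCND2mut (1.17, adjusted p = 0.000473) and stood at 0.29 in CCND2wt (adjusted p = 0.164). Fancf stood at 1.04 (adjusted p = 0.0118) in CCND2mut and -0.15 (adjusted p = 0.649) in CCND2wt. Rad54l, Blm, Rbbp8, Palb2, Fancm and Msh6 were called in neither comparison on this scale.

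Members that fell relative to the replication genes included the kinases Atm and Atr and, in each comparison, 4 core genes. Atm stood at -1.15 (adjusted p = 0.00657) in CCND2wt and -1.86 (adjusted p = 0.000543) in CCND2mut, and Atr at -0.95 (0.00334) and -1.20 (0.000786). Fancg, which was not called on the CPM scale, stood at -0.98 and -0.97, Fance at -0.81 and -1.08, and Fancc at -0.73 and -1.87, all called. In CCND2wt the relative fall of Fancc was lost without Vec 2 or any CCND2wt library (adjusted p up to 0.0601), that of Fancb without Vec 2, Vec 4, CCND2wt 2 or CCND2wt 3 (up to 0.1), and those of Nbn and Slx4 in 8 and 7 alternatives, the summed sample counted. These falls are read against the 65.2% and 58.2% of all tested genes that fell on this scale. Against CCND2wt 4 members rose and 4 fell on this scale, where 19.4% of all tested genes rose and 19.9% fell. The members higher in CCND2mut were Fancd2, Fancf, Fanca and Rad51ap1, the last with 0.86 (SE 0.262, adjusted p = 0.027), and those lower were Fancc, Chek2, Fancl and Rad51d. The call of Rad51ap1 was lost without any of the 3 CCND2wt libraries or CCND2mut 3 (adjusted p up to 0.0903), that of Fancf without CCND2wt 3 (0.055), and that of Rad51d without CCND2wt 2 (0.0728) and with the mean log2 scale (0.0523). Atm stood at -0.71 (adjusted p = 0.0737). The calls of CCND2wt against Vec and of CCND2mut against CCND2wt on this scale rest on the 3 CCND2wt libraries being separate samples.

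Other genes of the same pathway, from a list of 49 partners that are not members, moved in part with them. In CCND2wt against Vec 22 of the 49 rose and 0 fell (median 0.49), where 9.71% of all tested genes rose and 9.05% fell. In CCND2mut against Vec 27 rose and 4 fell (median 0.50), where 24.9% of all tested genes rose and 26.9% fell. Between CCND2mut and CCND2wt 8 rose and 7 fell, where 23.2% of all tested genes rose and 23.8% fell. Rmi2, which steadies the BLM complex, had 4.93 ± 1.19 CPM in Vec, 17 ± 0.565 in CCND2wt and 14.7 ± 2.7 in CCND2mut, and the helicase gene Mcm8 had 6.91 ± 0.905, 18.8 ± 1.52 and 17.8 ± 3.01. The largest fall was that of Trp53bp1, whose product limits resection and turns breaks toward end joining, from 88.8 ± 9.25 CPM in Vec to 28.9 ± 4.29 in CCND2mut (log2 -1.62, adjusted p = 6.5e-05), with 72.6 ± 4.58 in CCND2wt. It was lower in CCND2mut than in CCND2wt too (-1.33, adjusted p = 0.000148).

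Lists of the other repair pathways had smaller medians than the 37. Over all tested genes 9.71% rose and 9.05% fell in CCND2wt against Vec, and 24.9% rose and 26.9% fell in CCND2mut. For 14 genes of non-homologous end joining the median was 0.10 in CCND2wt, with 0 called, and 0.14 in CCND2mut, with 4 risen and 3 fallen. Xrcc5, which encodes the end-binding subunit Ku80, fell from 19 ± 1.01 CPM in Vec to 3.47 ± 1.46 in CCND2mut (-2.45, adjusted p = 0.000233), beside 18.2 ± 0.558 in CCND2wt. Of 18 tested genes of base excision repair 3 rose and 1 fell in CCND2wt and 5 rose and 3 fell in CCND2mut, with Neil1, a glycosylase, lower in both (-1.09 and -2.45). Nucleotide excision repair had 0 risen and 2 fallen of 21 in CCND2wt and 5 risen and 6 fallen in CCND2mut, the latter near the shares of all tested genes. Of 11 genes of translesion synthesis 2 rose and 1 fell in CCND2wt, and 3 rose and 3 fell in CCND2mut. Rad18, a ligase that marks the sliding clamp, stood at 30.5 ± 3.99 CPM in Vec, 48.3 ± 4.83 in CCND2wt and 102 ± 6.59 in CCND2mut and rose in each comparison. Of the 4 other mismatch repair genes 1 rose in CCND2wt, Mlh3, and 2 in CCND2mut, Mlh3 and Msh3. In CCND2wt the call of Mlh3 was lost under 8 alternatives and that of Rad18 under 2. The nucleotide excision falls there, Xpc and Ercc4, were lost under 8 and 7. In CCND2mut against Vec the call of Msh3 was lost under 11 and that of Mlh3 under 2. The summed sample is counted in each. Of 19 tested p53 targets 4 rose and 1 fell in CCND2wt, and 11 rose and 2 fell in CCND2mut. Of the 41 DNA replication genes 33 rose in CCND2wt, and 36 rose and 3 fell in CCND2mut (medians 1.07 and 1.24), and of 30 mitotic genes 21 and 28 rose and 0 fell (medians 1.76 and 2.14).

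Levels can be compared between genes only per length, here as CPM per kilobase of the gene length in the table. In Vec the highest of the 37 were Rad50 (13.5 CPM per kilobase), Chek2 (12) and Rad51d (11.2), and the lowest Rad51b (0.617), Rad51c (0.722) and Xrcc2 (1.02). In CCND2mut Rad51ap1 (15.4), Rad50 (15) and Rbbp8 (14.3) led, and Fancc was lowest (1.25). Fancd2 went from 1.42 in Vec to 10.6 CPM per kilobase in CCND2mut, and its pair Fanci from 2.26 to 5.47. Neighbours in this order were not tested against each other.

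Some members share ground with another gene. The gene models of 23 of the 37 overlap another in the table, and for 10 that other gene held more than 10% as many counts. The strand setting of the counting is not given in the sources used here, so that reads of such a pair may not be told apart. Fancc shares 41054 bases with 2010111I01Rik on the other strand, which fell by 0.89 in CCND2mut against Vec (adjusted p = 0.00397), and 7547 bases with Gm16907 on the same strand, which fell by 1.70. In CCND2mut against CCND2wt the log2 fold changes of 2010111I01Rik and Gm16907 were -0.60 and -1.16 (adjusted p = 0.0253 and 0.0152). Fancf shares 253 bases with Gas2, which rose by 1.78 in CCND2mut against Vec and by 1.26 against CCND2wt. Eme1 shares 221 bases with Lrrc59, which held over 10 times as many counts and rose by 0.79 in CCND2mut. Fanci shares 4034 bases with Polg, which rose by 0.87 in CCND2wt and stood at 0.01 in CCND2mut. Rad54b shares its locus with Gm11832 and Fsbp, which rose by 2.15 and 1.79 in CCND2wt and by 1.48 and 1.52 in CCND2mut. For Fanca (with Zfp276), Fancl (with Vrk2), Rad54l (with Lrrc41), Xrcc3 (with Klc1) and Msh6 (with Fbxo11), the other gene had log2 fold changes of 0.64, -0.72, -0.37, -0.12 and -0.62 in CCND2mut against Vec. In CCND2mut against CCND2wt these were 0.69, -0.39, -0.31, -0.31 and -0.41 in the same order. The part of these overlaps in the members' counts was not tested.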

How the data were processed

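Total RNA of bone marrow cells was sequenced in 9 libraries. The authors deposited raw read counts per gene with gene positions and lengths (mm10). Per the submitters' processing notes, the tools were CASAVA 1.8, fastp, HISAT2 2.0.5, featureCounts 1.5.0-p3 and DESeq2 1.20.0. Per the labels, groups were Vec, CCND2wt and CCND2mut.

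Counts were tested with edgeR 4.0.16 (limma 3.58.1, R 4.3.3): filterByExpr with a minimum count of 10, TMM factors, and robust quasi-likelihood fits over all 9 libraries (6 residual degrees of freedom, median biological coefficient of variation 0.302), with Benjamini-Hochberg adjustment over 15660 genes and a threshold of 0.05. A second fit took the summed counts of 41 DNA replication genes as library size. All p-values are two-sided, and the fitting was tested on simulated data. Alternatives were DESeq2 1.42.0, edgeR with RLE size factors, limma-voom, dropping the filter or a stricter one (CPM of at least 1 in 3 libraries), only the groups compared, a replicate block, each library left out, the CCND2wt libraries summed, and a mean log2 CPM scale for the replication list. Named were all 37 members and, from each pathway list and comparison, genes among the 2 with the smallest adjusted p past the threshold. The members and lists were chosen with earlier results of these data known. Overlapping genes of the last paragraph were named by their share of counts, after these were seen. Promoter and protein sequences were not used here.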

Additional observations from a re-analysis of the deposited data

How the results depend on the processing

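With the 3 CCND2wt libraries summed into 1 sample, 0 members rose in CCND2wt against Vec and 42 of all tested genes were called. In CCND2mut against CCND2wt 0 members then rose, 1 fell and 2680 of all genes were called, and relative to the replication genes 0 rose and 0 fell in both of these comparisons. Scaling by the mean log2 CPM of the replication list moved the members' median to -0.35 in CCND2wt and turned it to -0.10 in CCND2mut against Vec, and fitting only the groups compared gave 7 relative falls in CCND2mut against CCND2wt. The cause of these shifts was not tested, beyond the fewer samples of the summed fit. In CCND2wt against Vec 17 of 21 calls were kept in every other alternative (not Nbn, Dna2, Rad51ap1 and Slx4), in CCND2mut against Vec 23 of 25 in every alternative (not Nbn and Rad51d), and in CCND2mut against CCND2wt 5 of 8 in all but the summed sample (not Fancf, Fancl and Chek2). Relative to the replication genes, with the summed sample left aside, 8 of 15 rises and 8 of 12 falls were kept in CCND2wt, 12 of 14 and 12 of 13 in CCND2mut against Vec, and 2 of 4 and 3 of 4 between CCND2mut and CCND2wt. Of 35 differences of members that were under 0.25 on the log2 scale and not called, 14 changed sign in some alternative. The lowest count at a member was 25 in a library, so that counting error adds to the spread of the lowest genes.

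Leaving out each library in turn gave, for CCND2wt against Vec, 17 to 24 risen members, 0 fallen, a median of 0.80 to 1.00 and 1019 to 3817 calls over all genes, lowest without CCND2wt 4 (1019), 2 (1044) or 3 (1194). For CCND2mut against Vec it gave 21 to 24 risen, 3 to 4 fallen, a median of 0.86 to 1.17 and 7148 to 8220 calls. For CCND2mut against CCND2wt it gave 2 to 4 risen, 4 to 8 fallen (8 without CCND2mut 1), a median of -0.14 to -0.0013 and 5666 to 7900 calls. Relative to the replication genes the ranges were 10 to 15 risen and 8 to 13 fallen (median -0.15 to -0.01) in CCND2wt and 14 to 16 and 12 to 15 (median -0.04 to 0.13) in CCND2mut against Vec. That last median was -0.0425 without Vec 4 and -0.0088 without CCND2mut 3. Between CCND2mut and CCND2wt they were 2 to 5 risen (2 without CCND2wt 3) and 3 to 7 fallen (7 without Vec 1), with a median of -0.14 to -0.01.

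Libraries of different groups share numbers in their titles. Deviations of same-numbered libraries from their group means correlated at -0.057 to 0.139 over 6 pairs, and of differently numbered ones at -0.147 to 0.175 over 21. So few libraries a group cannot show whether a shared number stands for a shared batch or mouse. With the replicate block, 1636 of all genes were called in CCND2wt against Vec and the members' median there was 1.02. Members' counts were then 20 risen in CCND2wt and 22 risen and 2 fallen in CCND2mut against Vec, and 2 risen and 6 fallen in CCND2mut against CCND2wt. The block ended the calls of Nbn and Slx4 in CCND2wt, of Nbn and Rad51d (adjusted p = 0.0515) in CCND2mut against Vec and of Fancf between CCND2mut and CCND2wt, and brought Palb2 past the threshold against Vec in CCND2wt (0.0161) and CCND2mut (0.0128) and Rad54b between CCND2mut and CCND2wt (0.0398, lower in CCND2mut). Relative to the replication genes it ended those of Brca2 and Rad51c in CCND2wt and of Rad51ap1 between CCND2mut and CCND2wt.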
